A study of Mus musculus with 10 samples.

Results

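The urea cycle turns ammonia, which is toxic, into urea in the liver. The 10 genes described here encode its enzymes, the mitochondrial carriers that feed it and the enzymes that release ammonia from glutamate and glutamine. They were chosen by symbol, as the rows of the gene count table named Cps1, Otc, Ass1, Asl, Arg1, Nags, Slc25a15, Slc25a13, Glud1 and Gls2. All 10 were among the 55291 genes of the table, and all 10 passed the filter on low counts that kept 17015 genes for testing.

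RNA was sequenced from 10 liver samples of female mice, 16 to 20 weeks old, in 4 groups: 2 samples in NTC-Veh, 2 in sgBap1-Veh, 3 in NTC-CCl4 and 3 in sgBap1-CCl4. All the mice, controls included, carried Cas9 behind a Lox-Stop-Lox cassette and received an AAV8 virus with a guide RNA and Cre, with Cre under the hepatocyte promoter TBG. The guide either targeted Bap1 (sgBap1), a nuclear deubiquitinase, or was a non-targeting control (NTC). On day 10 the mice were injected with carbon tetrachloride (CCl4) in olive oil, a toxin that pericentral hepatocytes activate, or with olive oil alone (Veh), and livers were taken 48 h later. The knockout is limited to hepatocytes that took up the virus, whereas the RNA came from whole liver, so the RNA also includes cells that were not edited.

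In the cycle, carbamoyl-phosphate synthetase (Cps1) fixes ammonia in the mitochondrion and is switched on by N-acetylglutamate, the product of Nags. Ornithine transcarbamylase (Otc) then makes citrulline, which leaves in exchange for ornithine through Slc25a15. In the cytosol Ass1 joins citrulline to aspartate, which Slc25a13 (citrin) exports from the mitochondrion, Asl splits the product into arginine and fumarate, and Arg1 releases urea. Most of these enzymes, and the liver glutaminase Gls2, are known to be highest in periportal hepatocytes, while pericentral hepatocytes capture what ammonia is left as glutamine through Glul.

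The DNA just before the start of 4 of the genes is shown because their responses to CCl4 differ. They run from Otc and Ass1 (large falls) through Nags (a small one) to Glud1 (none detected). Asl, which fell most, had no matching sequence. The sequences are from RefSeq on GRCm38.p6, 6 of the 10 genes matched that table, and each run is 5′ to 3′ on the strand of the gene and ends before its first transcribed base. Capitals mark matches, on either strand, to any of 7 short motifs: TATAAA for the TATA box, CCAAT for the box bound by NF-Y, GGGCGG for the GC box, AAAGTNCA for the core bound by HNF4A, TTGCNNAA for C/EBP factors, TGTTTAC for FOXA factors and TGACGTCA for the cAMP response element.
Otc, chrX:10252055-10252304, + strand: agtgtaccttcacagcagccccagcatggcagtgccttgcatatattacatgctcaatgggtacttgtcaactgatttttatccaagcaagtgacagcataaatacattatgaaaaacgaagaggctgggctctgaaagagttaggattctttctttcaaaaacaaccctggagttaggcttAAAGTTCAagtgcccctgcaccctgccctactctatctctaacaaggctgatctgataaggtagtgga
Ass1, chr2:31470020-31470206, + strand: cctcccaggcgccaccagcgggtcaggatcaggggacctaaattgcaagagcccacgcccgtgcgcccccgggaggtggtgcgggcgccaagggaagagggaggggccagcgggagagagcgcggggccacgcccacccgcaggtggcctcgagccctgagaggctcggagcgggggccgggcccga
Nags, chr11:102145263-102145512, + strand: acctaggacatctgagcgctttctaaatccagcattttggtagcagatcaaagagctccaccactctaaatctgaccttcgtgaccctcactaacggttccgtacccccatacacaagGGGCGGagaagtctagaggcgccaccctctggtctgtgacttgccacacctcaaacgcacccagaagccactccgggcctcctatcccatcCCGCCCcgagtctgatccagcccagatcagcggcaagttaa
Glud1, chr14:34310477-34310726, + strand: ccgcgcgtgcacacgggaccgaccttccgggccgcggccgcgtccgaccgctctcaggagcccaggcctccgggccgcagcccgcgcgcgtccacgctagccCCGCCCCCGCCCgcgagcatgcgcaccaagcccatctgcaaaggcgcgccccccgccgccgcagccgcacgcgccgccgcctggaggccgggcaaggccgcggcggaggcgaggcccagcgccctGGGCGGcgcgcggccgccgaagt

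The Otc window held the AAAGTNCA core once, 68 bases before its end, and 1 CpG, with 43.6% G or C. Of the 32851 windows of that length in the table, 3.53% held this core on either strand. The Glud1 window was 82% G or C with 46 CpGs and held 3 GC boxes, 2 of them side by side, while the Nags window held 2. A GC box was present in 32.7% of all windows of 250 bases, and the median window was 52.4% G or C. The shorter Ass1 window, 187 bases and 75.4% G or C, held none of the 7 motifs. These matches describe the letters only.

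Total estimated counts were 3.30e+07 to 5.22e+07 per liver, so 3 counts corresponded to 0.0511 to 0.112 CPM, the unit of level used here (counts relative to the size of the library, corrected by TMM). Bap1 itself was at 34.8 and 34.8 CPM in the NTC-Veh livers, 17.5 and 19.5 in sgBap1-Veh, 30.1, 31.5 and 29.5 in NTC-CCl4 and 17.0, 21.8 and 19.1 in sgBap1-CCl4, lower in every sgBap1 liver than in every NTC liver. The liver label was checked against 10 hepatocyte genes, which summed to between 94855 and 195176 CPM in each liver. The liver sgBap1-CCl4 2 stood apart, with 489 CPM over 5 adipocyte genes against 4.88 to 15.8 in the other 9, and 1246 CPM over 7 stellate cell and myofibroblast genes against at most 552. Without it the counts of called genes among the 10 were the same in all 5 comparisons. The labels do not say whether each library came from a separate mouse, so p-values measure the spread between these samples.

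Per length of transcript, Ass1 and Arg1 were the most abundant of the 10 in the NTC-Veh livers. Ass1 had 1784 CPM per kilobase, Arg1 970, Cps1 813 and Glud1 440, followed by Asl with 230, Otc with 157, Gls2 with 141, Slc25a15 with 129, Slc25a13 with 80.2 and Nags with 30.2. Arg1 and Cps1 overlapped between the livers in this order. In the NTC-CCl4 livers the order was different. Arg1 (530) and Glud1 (450) led and overlapped, Ass1 (316) and Cps1 (239) overlapped below them, then came Slc25a15 (62.3), and Gls2 (36.7), Slc25a13 (34.0), Asl (31.7), Otc (29.5) and Nags (22.9) each overlapped with the next. Nags was lowest in both groups.

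CCl4 and the olive oil controls were compared first within the NTC livers, to measure the response to the toxin without Bap1 editing. Transcripts of the urea cycle fell: 9 of the 10 genes were lower by edgeR's quasi-likelihood test (adjusted p under 0.05). None of these 9 had overlapping livers between the groups, which was not counted over all genes. The largest falls were those of Asl, Ass1 and Otc, the enzymes that make and split argininosuccinate and that form citrulline, and the exception was Glud1. Across all genes tested, 53.8% were called in this comparison, 27.5% higher and 26.3% lower, and the median log2 fold change was 0.03 over all genes against -1.50 over the 10. In sgBap1 livers CCl4 lowered 8 of the 10, all but Nags and Glud1, with a median of -1.31 against 0.04 over all genes. There 56.7% of all genes were called, 29.0% higher and 27.7% lower.

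These counts depend on scaling. With library size alone in place of TMM, which moved the median of all genes to 0.50 (NTC) and 0.52 (sgBap1), 8 genes were lower and 1, Glud1, was higher in both genotypes. Scaled to 10 hepatocyte genes, which moved that median to 0.92 and 0.69, 5 were lower and Glud1 was higher in both genotypes. In NTC livers more of all genes were called with either scaling than with TMM, and most with hepatocyte scaling. The shares of all genes given above are for TMM only. With hepatocyte scaling in NTC livers 6 of the 10 were called in either direction, against 9 with TMM. Over all genes the share called there rose above the 53.8% of TMM. With that scaling the calls among the 10 were therefore not shown to be more frequent than over all genes. For sgBap1 livers the shares of all genes under these scalings are not given here. In bulk tissue fewer hepatocytes and less RNA per hepatocyte cannot be told apart.

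**Figure D1:**
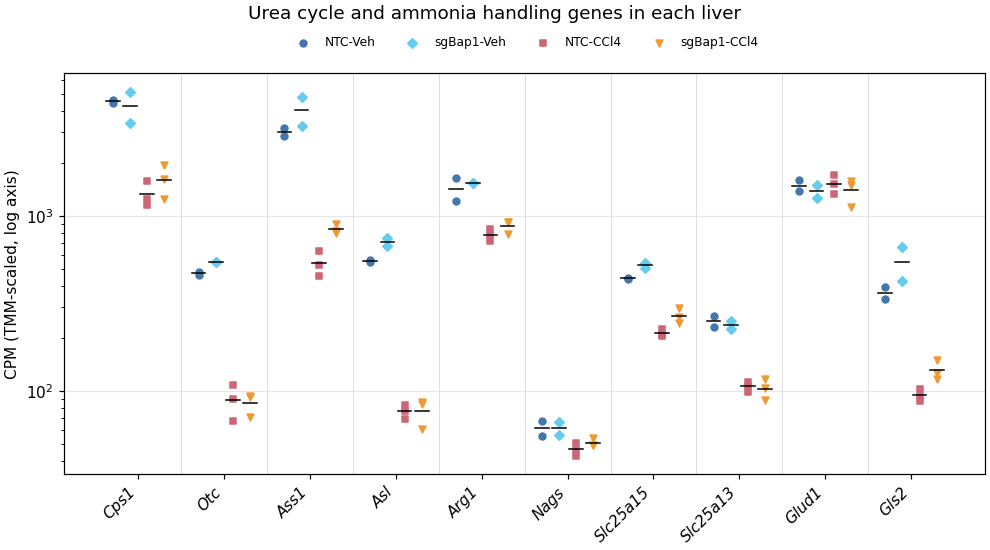
Level of each gene (x axis) in each of the 10 livers, in TMM-scaled CPM on a log axis. Points are single livers, coloured by group, and the short black lines are group means. For all genes but Glud1, every CCl4 liver lies below every vehicle liver.

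Cps1 is the first and rate-setting enzyme of the cycle. Its transcript was at 4429.7 and 4599.7 CPM in the NTC-Veh livers, 5139 and 3392 in sgBap1-Veh, 1149.9, 1257 and 1581 in NTC-CCl4 and 1961, 1622 and 1247 in sgBap1-CCl4. Vehicle livers were high and CCl4 livers low with no overlap, and the sgBap1 livers of both treatments were more scattered than the NTC livers. With CCl4 it was 3.40-fold lower in NTC livers (log2 fold change -1.76, SE 0.23, edgeR adjusted p = 0.000109) and 2.65-fold lower in sgBap1 livers (-1.41, SE 0.23, edgeR adjusted p = 0.000454). Scaled to hepatocyte genes, the NTC fall shrank to -0.86 (edgeR adjusted p = 0.0486) and the call in sgBap1 livers was lost (-0.75, edgeR adjusted p = 0.0846). Its reads made up 0.348% and 0.391% of all counts in the NTC-Veh livers and 0.130% to 0.182% in NTC-CCl4.

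Otc, which condenses carbamoyl phosphate with ornithine, was at 480.2 and 459 CPM in NTC-Veh livers, 547 and 546 in sgBap1-Veh, 89.7, 67.4 and 108 in NTC-CCl4 and 93.4, 70.6 and 92.0 in sgBap1-CCl4. The CCl4 groups overlapped, far below the vehicle groups. The fall was 5.31-fold in NTC livers (log2 fold change -2.41, SE 0.19, edgeR adjusted p = 4.61e-06) and 6.40-fold in sgBap1 livers (-2.68, SE 0.19, edgeR adjusted p = 2.63e-06).

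Ass1 forms argininosuccinate from citrulline and aspartate. Its levels were 3186 and 2866 CPM in NTC-Veh livers, 4788 and 3269.6 in sgBap1-Veh, 452, 523 and 633 in NTC-CCl4 and 898, 819.8 and 803 in sgBap1-CCl4. CCl4 livers were low in both genotypes, and within each treatment every sgBap1 liver was above every NTC liver. CCl4 lowered it 5.64-fold in NTC livers (log2 fold change -2.50, SE 0.19, edgeR adjusted p = 4.21e-06) and 4.80-fold in sgBap1 livers (-2.26, SE 0.19, edgeR adjusted p = 6.38e-06). Of the 50-base stretches of the Ass1 transcripts, 38.6% also occur in other genes, most of all in Gm5424, which was given 10.1% as many counts as Ass1 and moved by -2.38 and -2.29 in the same comparisons, so reads may have been divided between the pair.

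Asl, which releases arginine and fumarate, fell the most of the 10. It was at 548 and 563 CPM in NTC-Veh livers, 744 and 671 in sgBap1-Veh, 69.2, 82.9 and 77.1 in NTC-CCl4 and 84.0, 60.5 and 86.4 in sgBap1-CCl4. The NTC-Veh livers were close to each other and the sgBap1-Veh livers above them, while the CCl4 groups overlapped. The fall was 7.27-fold in NTC livers (log2 fold change -2.86, SE 0.16, edgeR adjusted p = 1.02e-06) and 9.19-fold in sgBap1 livers (-3.20, SE 0.16, edgeR adjusted p = 5.29e-07).

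Arg1 catalyses the last step. Its levels were 1655 and 1209.9 CPM in NTC-Veh livers, 1553 and 1543 in sgBap1-Veh, 777, 847 and 724 in NTC-CCl4 and 929.5, 791 and 919 in sgBap1-CCl4. The groups split by treatment without overlap. It was 1.83-fold lower with CCl4 in NTC livers (log2 fold change -0.87, SE 0.15, edgeR adjusted p = 0.000757) and 1.76-fold lower in sgBap1 livers (-0.82, SE 0.15, edgeR adjusted p = 0.00109), but scaled to hepatocyte genes the NTC difference turned to 0.04 and the sgBap1 difference was -0.18, neither called. The ratio of Arg1 to Ass1 CPM, not scaled for length, was 0.324 to 0.519 in the 4 vehicle livers and 0.965 to 1.72 in the 6 CCl4 livers. Arg1 is also expressed by some macrophages, and the 7 leukocyte and monocyte-derived macrophage genes summed to 21.6 to 54.6 CPM in vehicle livers and 260 to 378 CPM in CCl4 livers. The part of those cells in the Arg1 level was not tested.

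Nags makes the activator of Cps1. It was at 55.3 and 67.3 CPM in NTC-Veh livers, 66.2 and 56.1 in sgBap1-Veh, 46.1, 42.5 and 50.7 in NTC-CCl4 and 53.5, 48.9 and 49.4 in sgBap1-CCl4. The lowest vehicle livers were only just above the highest CCl4 livers. In NTC livers it was 1.32-fold lower (log2 fold change -0.40, SE 0.11, edgeR adjusted p = 0.0124), a call that was lost without NTC-Veh 2 (-0.25, edgeR adjusted p = 0.161) and whose direction turned with library size alone (0.07) and with hepatocyte scaling (0.49). In sgBap1 livers the difference was -0.27 (SE 0.11, edgeR adjusted p = 0.0621). Nags lies at chr11:102145513-102149477 (GRCm38, + strand), where Gm11586 overlaps it on the other strand.

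Both mitochondrial carriers were lower with CCl4. Slc25a15, the ornithine and citrulline exchanger, was at 437 and 445 CPM in NTC-Veh livers, 537 and 507 in sgBap1-Veh, 205, 227 and 208 in NTC-CCl4 and 263, 246 and 297 in sgBap1-CCl4. All 4 groups were separate, with the sgBap1 livers above the NTC livers of the same treatment. CCl4 lowered it 2.06-fold in NTC livers (log2 fold change -1.04, SE 0.11, edgeR adjusted p = 2.85e-05) and 1.94-fold in sgBap1 livers (-0.96, SE 0.11, edgeR adjusted p = 4.71e-05).

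Slc25a13, the aspartate and glutamate exchanger, was at 231 and 269 CPM in NTC-Veh livers, 225 and 251 in sgBap1-Veh, 113, 98.6 and 107 in NTC-CCl4 and 103, 89.3 and 116 in sgBap1-CCl4. The genotypes overlapped in both treatments and the treatments did not. It fell 2.36-fold in NTC livers (log2 fold change -1.24, SE 0.13, edgeR adjusted p = 2.37e-05) and 2.31-fold in sgBap1 livers (-1.21, SE 0.13, edgeR adjusted p = 2.57e-05). Scaled to hepatocyte genes, the calls of Slc25a15 in both genotypes (-0.15 and -0.32) and of Slc25a13 in NTC livers (-0.35) were lost.

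Glud1 and Gls2 supply ammonia. Glud1, glutamate dehydrogenase, was at 1605 and 1381 CPM in NTC-Veh livers, 1265 and 1497 in sgBap1-Veh, 1527, 1708 and 1337 in NTC-CCl4 and 1495, 1127 and 1578 in sgBap1-CCl4. All 4 groups overlapped. Its log2 fold change with CCl4 was 0.03 in NTC livers (SE 0.18, edgeR adjusted p = 0.901) and 0.02 in sgBap1 livers (SE 0.18, edgeR adjusted p = 0.932), and it became a rise with library size alone (0.51 and 0.49) and with hepatocyte scaling (0.93 and 0.65). Of the Glud1 stretches, 6.49% occur in other genes, most of all in Glud-ps, which had 0.711% as many counts.

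Gls2, the glutaminase of periportal hepatocytes, was at 390.2 and 336 CPM in NTC-Veh livers, 664 and 425 in sgBap1-Veh, 93.0, 87.7 and 103 in NTC-CCl4 and 151, 127 and 118 in sgBap1-CCl4. Levels were low in every CCl4 liver, and in each treatment the sgBap1 livers were above the NTC livers. The fall was 3.84-fold in NTC livers (log2 fold change -1.94, SE 0.18, edgeR adjusted p = 1.39e-05) and 4.13-fold in sgBap1 livers (-2.05, SE 0.18, edgeR adjusted p = 9.73e-06). The ratio of Glud1 to Gls2 CPM, not scaled for length, was 1.91 to 4.11 in vehicle livers and 8.90 to 19.5 in CCl4 livers.

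**Figure D2:**
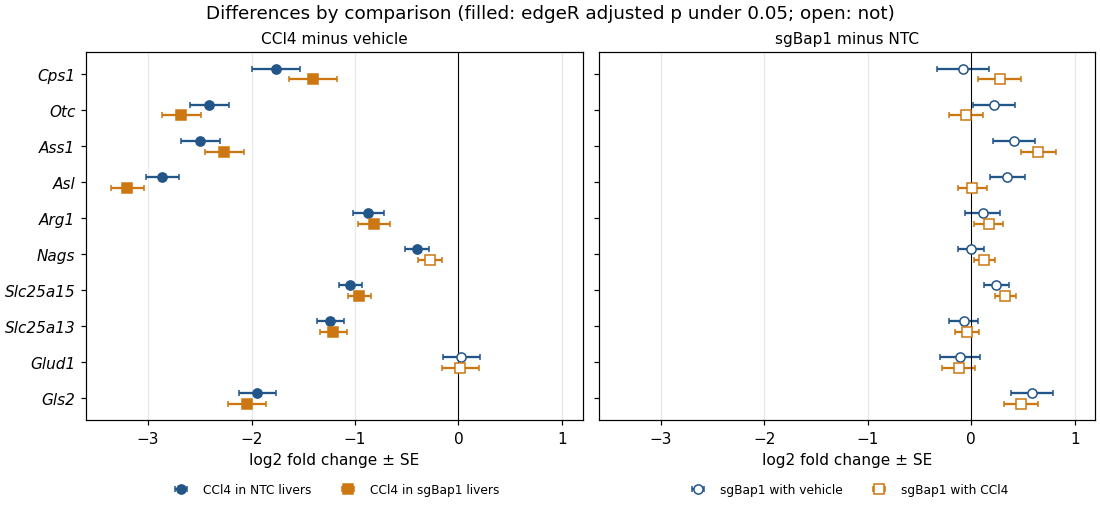
Log2 fold change of each gene with its SE, CCl4 minus vehicle in NTC and sgBap1 livers (left) and sgBap1 minus NTC with vehicle and with CCl4 (right). Filled symbols have an edgeR adjusted p under 0.05, and all symbols of the right panel are open.

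Summed over the 10 genes, NTC-Veh livers had 12606 ± 581 CPM (SD, n = 2), sgBap1-Veh 13843 ± 2384 (n = 2), NTC-CCl4 4798 ± 239 (n = 3) and sgBap1-CCl4 5446 ± 529 (n = 3). The vehicle and CCl4 livers did not overlap, and the lowest vehicle liver, sgBap1-Veh 2, still had 12157 CPM against 6032 in the highest CCl4 liver. Scaled to hepatocyte genes the means were 8146 (NTC) and 11417 (sgBap1) with vehicle, and 5795 and 6979 with CCl4. The share of all estimated counts corresponds to scaling by library size alone. By that share the 10 genes took 0.983% to 1.30% in vehicle livers and 0.511% to 0.679% in CCl4 livers.

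**Figure D3:**
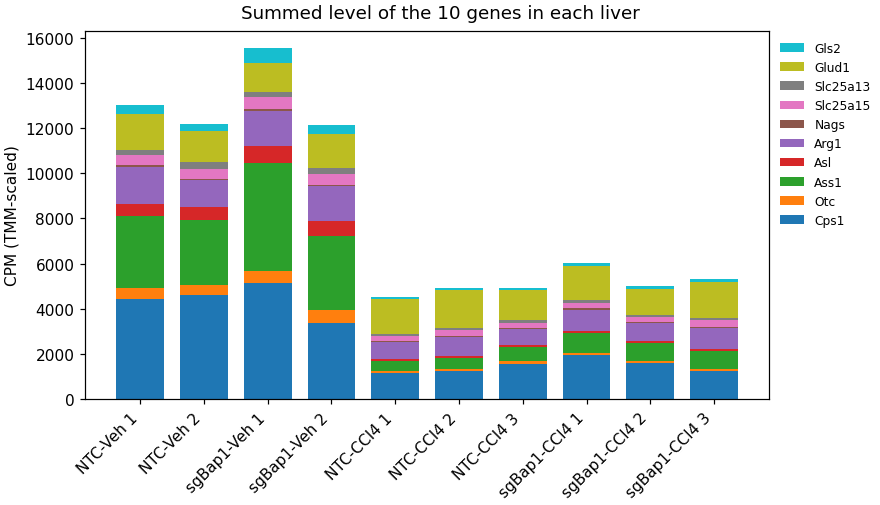
Level of the 10 genes in each liver (x axis), stacked from Cps1 at the bottom to Gls2 at the top, in TMM-scaled CPM from 0. Vehicle livers reach 12157 to 15529 and CCl4 livers 4522 to 6032.

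In the same livers other hepatocyte genes moved as well. Of the 10 general hepatocyte markers 7 were lower with CCl4 in NTC livers, with a median log2 fold change of -0.87. Of 10 pericentral markers, 9 were lower with a median of -2.39, their sum going from 13477 to 15262 CPM in NTC-Veh to 881 to 1340 CPM in NTC-CCl4, and of 7 periportal markers outside the cycle 5 were lower and 1 higher, with a median of -1.58. All 7 leukocyte genes and 6 of 7 stellate cell genes were higher. The part of these shifts in the falls of the urea cycle genes was not tested.

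Of the paralogs examined, Arg2 was higher with CCl4 and Slc25a12 was not called. Arg2, the mitochondrial arginase, was below 1 CPM in every liver, at 0.218 and 0.0831 CPM in NTC-Veh (8 and 3 counts), 0.323 and 0.187 in sgBap1-Veh, 0.341, 0.470 and 0.625 in NTC-CCl4 and 0.681, 0.924 and 0.638 in sgBap1-CCl4. In NTC livers it was higher with CCl4 by the test (log2 fold change 1.64, SE 0.51, edgeR adjusted p = 0.0195) at a depth where 1 liver had only 3 counts. Slc25a12, the aspartate and glutamate carrier of muscle and brain, was at 17.6 CPM on average in NTC-Veh and 19.7 in NTC-CCl4 (0.16, SE 0.10, edgeR adjusted p = 0.178), but it was called higher with library size alone (0.64, edgeR adjusted p = 0.000750) and with hepatocyte scaling (1.06, edgeR adjusted p = 0.000608). Slc25a2, a second ornithine carrier, had 2 to 10 counts in each liver and was not tested.

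Glul, the glutamine synthetase of the innermost pericentral hepatocytes, fell further than any gene of the cycle. It was at 1819 and 1527 CPM in NTC-Veh livers, 1325 and 1460.4 in sgBap1-Veh, 96.0, 87.3 and 87.1 in NTC-CCl4 and 46.9, 182 and 77.4 in sgBap1-CCl4. CCl4 livers were low throughout, with the widest spread in sgBap1-CCl4. The fall was 18.6-fold in NTC livers (log2 fold change -4.21, SE 0.48, edgeR adjusted p = 0.000124) and 13.6-fold in sgBap1 livers (-3.77, SE 0.47, edgeR adjusted p = 0.000201).

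**Figure D4:**
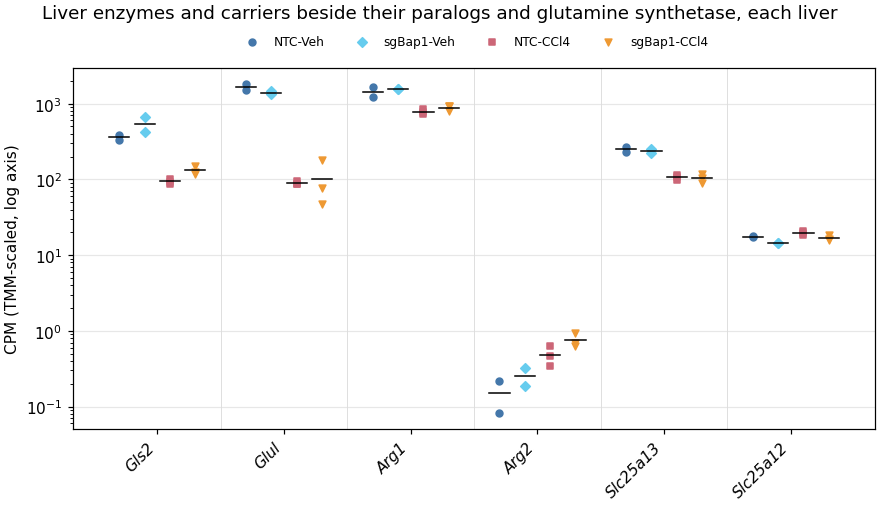
Level of Gls2 and Glul, and of Arg1 and Slc25a13 beside their paralogs Arg2 and Slc25a12, in each liver, in TMM-scaled CPM on a log axis. Points are livers and black lines group means. Gls2 is lower in the CCl4 livers, and Glul drops from 1325 or more to 182 or less.

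Around the cycle, 42 genes of nitrogen metabolism were examined in 4 lists, of which 40 were tested. With CCl4 in NTC livers 6 were higher and 29 lower (median log2 fold change -1.23), and in sgBap1 livers 5 were higher and 28 lower (median -1.33). With library size alone the split was 8 higher and 24 lower in NTC livers and 9 and 23 in sgBap1 livers. With hepatocyte scaling it was 11 and 17 in NTC livers and 9 and 20 in sgBap1 livers. The shares of all genes called under these scalings, larger in NTC livers than with TMM, are not given here. The genes that use arginine and ornithine were mixed. Of 7, 5 were higher in NTC livers, among them the polyamine enzyme Odc1 (0.73, SE 0.10), the creatine enzyme Gatm (1.18, SE 0.16) and the endothelial nitric oxide synthase Nos3 (1.15, SE 0.26), and 2 were lower, the ornithine aminotransferase Oat (-2.76, SE 0.24, from 1028 to 152 CPM) and Agmat (-1.38, SE 0.14). Nos2, the inducible nitric oxide synthase, had the largest rise (3.96, SE 0.97, edgeR adjusted p = 0.00569), but from 1 count in each NTC-Veh liver to 12, 13 and 36 counts in NTC-CCl4, and in sgBap1 livers it was at 13 and 13 counts with vehicle and 12, 16 and 5 with CCl4 (-1.06, edgeR adjusted p = 0.197). The difference between these responses was not called (edgeR adjusted p = 0.136).

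Among 10 tested genes of glutamine synthesis and amino acid transport, 8 were lower and 1 higher in NTC livers. The glutamate transporter Slc1a2, a pericentral gene, went from 257 CPM to 0.577 CPM (log2 fold change -8.77, SE 0.18, edgeR adjusted p = 3.11e-09) and the glutamine transporter Slc38a3 from 2526 to 713 CPM (-1.82, SE 0.15). Rhbg, an ammonium transporter of pericentral hepatocytes, fell by 3.15 on the log2 scale (SE 0.23). The cationic amino acid transporter Slc7a1 rose from 0.974 to 8.05 CPM (3.04, SE 0.31, edgeR adjusted p = 2.51e-05), while Slc7a2, the form typical of hepatocytes, went from 724 to 320.0 CPM (-1.18, SE 0.19), a call that was lost with hepatocyte scaling (-0.29, edgeR adjusted p = 0.227). Slc38a2 (0.09) and Slc25a22 (0.11) also lost their calls with that scaling and turned positive. With library size alone Slc25a22 lost its call as well (-0.32, edgeR adjusted p = 0.0556).

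Of 12 enzymes that break down amino acids, 10 were lower and none higher in NTC livers, with a median of -1.80, and the proline dehydrogenase Prodh fell most (-3.87, SE 0.23, edgeR adjusted p = 2.35e-06, from 196 to 13.3 CPM). Among the transaminases of this list, cytosolic Got1 was at -2.34 (SE 0.12), Gpt at -2.36 (SE 0.11), mitochondrial Got2 at -0.83 (SE 0.11) and Gpt2 at -0.17 (SE 0.18, not called). The glycine decarboxylase Gldc (0.17, SE 0.16) was the other gene not called in NTC livers. With hepatocyte scaling Got2 turned to 0.08 and lost its call, as did the histidine ammonia-lyase Hal (-0.99) and the tryptophan dioxygenase Tdo2 (-0.25), while Gpt2 (0.71, edgeR adjusted p = 0.00143) and Gldc (1.07, edgeR adjusted p = 0.000501) were called higher. With library size alone Gpt2 was at 0.30, Tdo2 lost its call (-0.65) and Gldc was called higher (0.64, edgeR adjusted p = 0.00556).

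Of 11 regulators and cofactor suppliers, 9 were lower in NTC livers. The mitochondrial carbonic anhydrase Car5a, which supplies the bicarbonate that Cps1 uses, fell most (-2.85, SE 0.19, edgeR adjusted p = 2.71e-06, from 75.2 to 10.4 CPM). The hepatocyte transcription factor Cebpa was lower by 1.56 on the log2 scale (SE 0.19) and the glucagon receptor Gcgr by 1.23 (SE 0.18). With hepatocyte scaling the Gcgr call was lost (-0.34, edgeR adjusted p = 0.0881). So were those of Ppargc1a (-0.34), Mdh1 (-0.32), Sirt5 (0.26), Nr3c1 (0.41) and Fh1 (0.14), while Car5a, Sirt3 and Cebpa kept theirs. Sirt5, Nr3c1 and Fh1 also lost their calls with library size alone. Hnf4a, a master regulator of hepatocyte genes, was at 580 CPM with vehicle and 486 CPM with CCl4 (-0.25, SE 0.13, edgeR adjusted p = 0.131), and mitochondrial malate dehydrogenase Mdh2 was not called either (-0.22, SE 0.11). Both turned positive with library size alone (0.22 and 0.25) and with hepatocyte scaling (0.64 and 0.67), where both were called higher. Hnf4a is itself among the 10 hepatocyte genes of that scaling. Its call there only restates that it fell less than most of that set.

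**Figure D5:**
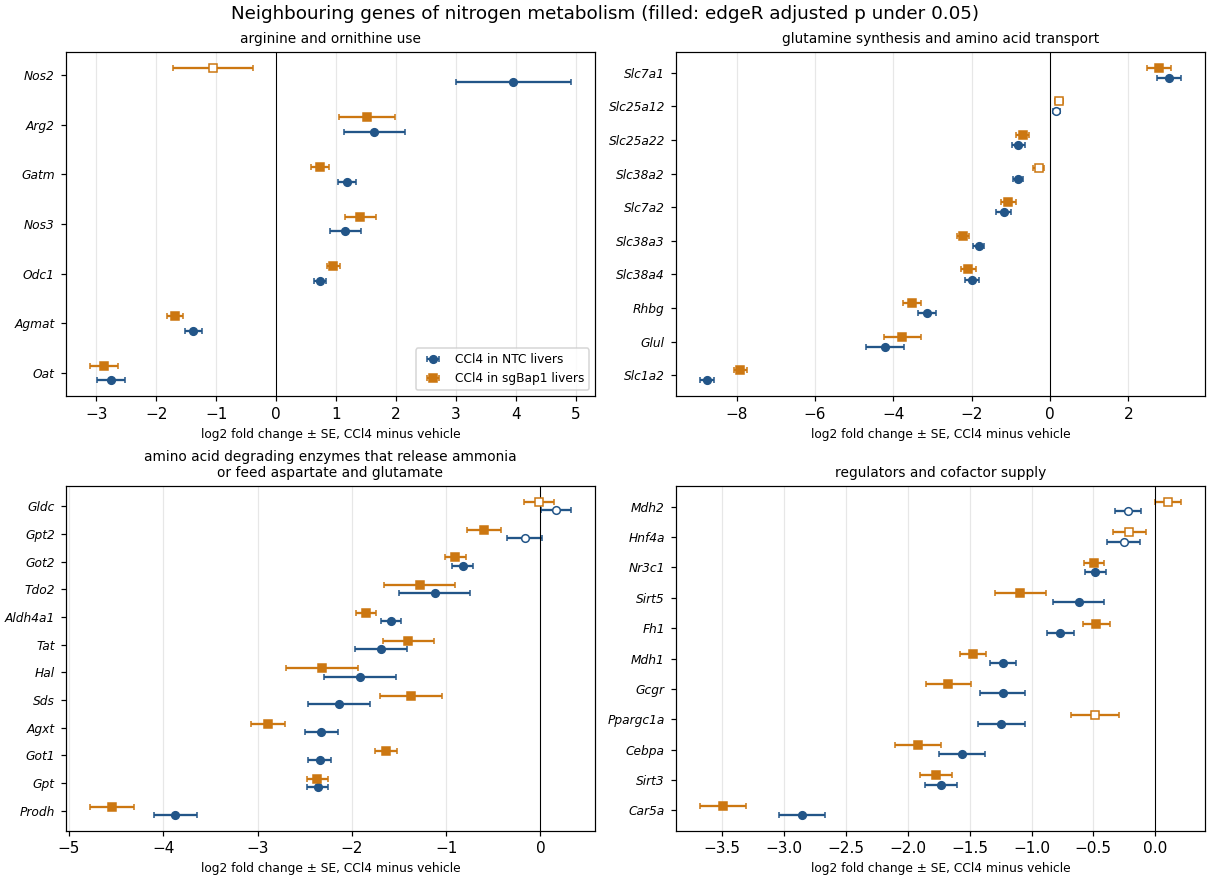
Log2 fold change with SE, CCl4 minus vehicle, of the 40 tested neighbouring genes in 4 lists, in NTC (circles) and sgBap1 livers (squares). Filled symbols have an edgeR adjusted p under 0.05. In the list of amino acid degrading enzymes no filled symbol lies to the right of 0, and Slc1a2 is at -8.77 and -7.91.

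Over the 10 livers, log2 CPM followed the mean of the 10 genes most closely, among other genes averaging 100 counts or more, for Hpd (Pearson r = 0.997), Rnf5 (0.996), Gnmt (0.996), Hsd3b2 (0.995) and Slc29a1 (0.995), a description of 10 livers split by 2 treatments. Their log2 fold changes with CCl4 in NTC livers ranged from -3.82 (Hpd) to -0.88 (Rnf5). Of the members themselves, 8 had an r of at least 0.959 with that mean, which includes them, while Nags had 0.858 and Glud1 -0.07.

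The effect of Bap1 loss was examined in injured livers by comparing sgBap1-CCl4 with NTC-CCl4, groups that also enter the comparisons with vehicle above. None of the 10 genes was called, against 0.253% of all genes. An unadjusted p under 0.05 by edgeR was found for 3 of the 10, and for 2288 of all 17015 genes. These 3 were Ass1 (log2 fold change 0.65, SE 0.17, edgeR adjusted p = 0.141), Slc25a15 (0.33, SE 0.10, edgeR adjusted p = 0.193) and Gls2 (0.48, SE 0.17, edgeR adjusted p = 0.250). In each of the 3, all sgBap1-CCl4 livers were above all NTC-CCl4 livers, a separation that was not counted over all genes. DESeq2's Wald test called 2 of them, Ass1 (0.65, DESeq2 adjusted p = 0.00569) and Slc25a15 (0.33, DESeq2 adjusted p = 0.0207). The 0.253% above is the share called by edgeR, and DESeq2's share of all genes is not given here. The other 7 overlapped between the groups, with differences from -0.12 for Glud1 to 0.28 for Cps1.

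Of the neighbours, Got1, the cytosolic aspartate aminotransferase, was higher in the sgBap1-CCl4 livers. It was at 102, 116 and 113 CPM in NTC-CCl4 and 165, 173 and 182 in sgBap1-CCl4 (log2 fold change 0.65, SE 0.11, edgeR adjusted p = 0.0448), against 617 and 505 in NTC-Veh and 559 and 522 in sgBap1-Veh. It was the only one of 40 neighbours called by edgeR in this comparison, and over the alternatives 0 to 5 neighbours were called. With each liver left out in turn the adjusted p of Got1 by edgeR was 0.0484 to 0.227, and the call was kept only without NTC-Veh 1 or without NTC-Veh 2. It was also lost with hepatocyte scaling (edgeR adjusted p = 0.107) and with the replicate number as a block (edgeR adjusted p = 0.110). The other alternatives kept it, from 0.0121 (no filter) to 0.0486 (DESeq2 size factors) by edgeR adjusted p, and 3.95e-07 by DESeq2's Wald test.

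With vehicle, where the comparison asks what Bap1 loss does without injury, none of the 10 genes and none of the 40 neighbours was called, and 0.523% of all genes were. With hepatocyte scaling 1 neighbour, Gpt2, was called higher in the sgBap1-Veh livers (0.82, edgeR adjusted p = 0.0347). Gls2 alone of the 10 had an unadjusted p under 0.05 (log2 fold change 0.58, SE 0.20, edgeR adjusted p = 0.251), as did 2139 of all 17015 genes. DESeq2's Wald test called none of the 10. In 5 of the 10, Otc (0.22), Ass1 (0.41), Asl (0.35), Slc25a15 (0.24) and Gls2, both sgBap1-Veh livers were above both NTC-Veh livers. This describes 2 livers against 2, and how many of all genes separate this way was not counted.

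Whether CCl4 acted differently in the 2 genotypes was tested as an interaction. None of the 10 genes was called or had an unadjusted p under 0.05, and DESeq2's Wald test called none of the 10. The estimates ran from -0.34 (Asl, SE 0.22, edgeR adjusted p = 0.654) to 0.36 (Cps1, SE 0.33, edgeR adjusted p = 0.776). With edgeR, 0% of all 17015 genes were called, although 1796 had an unadjusted p under 0.05 and DESeq2 called 424. For Nags, which was called in NTC but not in sgBap1 livers, the interaction was 0.13 (SE 0.16, edgeR adjusted p = 0.847), so its responses were not shown to differ.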

How the data were processed

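Bulk RNA-seq of 10 mouse livers was analysed. The authors made stranded polyA libraries, aligned them to GRCm38 with STAR 2.7.6a and quantified genes with Salmon 1.4.0 on GENCODE vM25. The deposited table holds these estimated counts (expected counts) per gene symbol, without normalization, and 9.22% of its values were not whole. Columns were matched to samples by the library name in the labels.

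Counts were rounded, and edgeR 4.0.16 (R 4.3.3) was used with filterByExpr by group (17015 of 55291 genes), TMM, estimateDisp, glmQLFit (robust) on 1 model of the 4 groups, and two-sided quasi-likelihood tests with Benjamini-Hochberg adjustment over all tested genes and a threshold of 0.05. The SE is the absolute log2 fold change divided by the square root of F. CPM are divided by TMM-scaled library sizes. The alternatives were DESeq2 size factors, library size alone, scaling to 10 hepatocyte genes, no filter, a mean of at least 10 counts, DESeq2's Wald test (DESeq2 1.42.0), only the 2 groups compared, the replicate number as a block, and each liver left out in turn. Steps were tested on simulated data in which far fewer genes changed than with CCl4 here. That test does not cover the choice of scaling in the CCl4 comparisons. No batch is named in the labels.

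The 10 genes, the neighbouring lists and the marker lists were chosen with earlier results of these data known. Beside the 10, the text names paralogs of them, Glul, Bap1, the largest called rise and fall of each neighbouring list in NTC livers and the 5 genes most like the mean of the 10. Other neighbours and Gm5424, Glud-ps and Gm11586 were named after their values were seen, and 1 gene is not reported here. Lengths (longest basic coding transcript), overlaps and shared 50-base stretches come from GENCODE vM21, on the same build, since vM25 was not used here. With 3.30e+07 to 5.22e+07 estimated counts per liver, 3 counts stand at 0.112 CPM or less.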

Additional observations from a re-analysis of the deposited data

How the results depend on the processing

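The falls of Otc, Ass1, Asl and Gls2 with CCl4 kept their direction and their call in both genotypes under every alternative run and without each liver. With CCl4 in NTC livers, 6 to 9 of the 10 genes were called over the alternatives and 8 to 9 without single livers. In sgBap1 livers it was also 6 to 9 and 8 to 9. The number of all genes called changed as well, and in NTC livers hepatocyte scaling called the most among the alternatives. Nags in sgBap1 livers was called with DESeq2 size factors (-0.29, edgeR adjusted p = 0.0476), by DESeq2's Wald test and without sgBap1-Veh 2. With CCl4, DESeq2's Wald test called 2 of the 10 between genotypes, against 0 with edgeR. The share of all genes that DESeq2 called there is not given here. The replicate numbers of the labels did not pair the livers, with same-number correlations of -0.21 to 0.13 over 13 pairs, and the replicate block left 9, 8, 0, 0 and 0 of the 10 called, although Got1 lost its call (adjusted p = 0.110 by edgeR).

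Turned directions were those of differences near 0 or came with other scaling. Library size alone turned Nags to 0.068 (NTC) and 0.20 (sgBap1) with CCl4. Scaling to hepatocyte genes gave 0.040 for Arg1 and 0.49 for Nags with CCl4 in NTC livers and 0.37 for Nags in sgBap1 livers. Between genotypes it gave 0.020 for Slc25a13 with CCl4, and with vehicle 0.27 for Cps1, 0.33 for Nags, 0.25 for Slc25a13 and 0.23 for Glud1. Its interactions were -0.041 for Ass1, -0.22 for Arg1, -0.12 for Nags, -0.17 for Slc25a15 and -0.23 for Slc25a13. Nags with vehicle was 0.0061 with DESeq2 size factors, 0.00090 with library size alone and 0.0063 by DESeq2's Wald test, and the Glud1 interaction was 0.013 with no filter. For the turns with other scalings the change of scale is the construction, and for the rest the cause was not tested.

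Without single livers, Glud1 ranged from -0.072 to 0.14 (NTC) and from -0.091 to 0.16 (sgBap1) with CCl4. Between genotypes with CCl4, Otc ranged from -0.21 to 0.12, Asl from -0.088 to 0.16, Slc25a13 from -0.15 to 0.049 and Glud1 from -0.23 to 0.012. With vehicle, Cps1 ranged from -0.42 to 0.19, Arg1 from -0.10 to 0.35, Nags from -0.14 to 0.15 and Slc25a13 from -0.18 to 0.039. Interactions ranged from -0.016 to 0.54 for Ass1, -0.18 to 0.26 for Arg1, -0.021 to 0.27 for Nags, -0.00047 to 0.15 for Slc25a15, -0.084 to 0.14 for Slc25a13, -0.12 to 0.12 for Glud1 and -0.39 to 0.26 for Gls2. None of these differences was called in any of the fits that left out a liver.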
